A study of Mus musculus with 7 samples.

Results

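S100 proteins and secreted defence factors were followed in cells sorted from mouse skin tumours. The 10 genes were listed by name, S100a4, S100a6, S100a8, S100a9, S100a10, S100a11, S100a14, S100a16, Slpi and Lcn2, among 18193 genes that could be named on the array. A probe set was used where the platform annotation gives it a single gene symbol. By this rule 9 genes had values, on 12 probe sets. S100a11 had none, since the probe set annotated to it also carries the symbols of other genes, and it is not analysed here. The tumours had been induced with DMBA, a carcinogen that mutates skin cells, and TPA, a promoter of tumour growth, and cells positive for Cd34 and Epcam had been isolated from them by flow cytometry. Carcinomas, the malignant form, gave 4 arrays, numbered 1, 2 and 3 and tagged GFP. Papillomas, the benign form, gave 3 arrays, numbered 1 and 2 and tagged GFP. All sample descriptions name Nr2f2, a nuclear receptor, before the tumour type. The sources used here do not give genotype, strain, sex or age, the meaning of the tag, or whether arrays came from separate animals, so p-values measure the spread between these samples, which may be technical.

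S100 proteins are small calcium-binding proteins, most of which work as dimers inside cells, and some of which are released and act as danger signals. S100a8 and S100a9 pair to form calprotectin, which withholds metal ions from microbes, fills the cytoplasm of neutrophils and is induced in stressed or wounded keratinocytes. Slpi is a secreted inhibitor of serine proteases such as neutrophil elastase. Lcn2 is a secreted lipocalin that binds bacterial iron carriers. In the RefSeq gene order the S100 members lie on chromosome 3, where S100a8 neighbours S100a9, S100a14 neighbours S100a16 and S100a10 neighbours S100a11. Slpi and Lcn2 lie apart from each other on chromosome 2.

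Levels are RMA values on the log2 scale, where 1 unit is a doubling of signal. Array medians lay between 5.38 and 5.51. The GFP arrays stood apart from the 5 untagged arrays. The 3′ minus 5′ difference of the Gapdh control probe sets, which grows as labelled RNA shortens, was 3.19 in both GFP arrays, against -0.043 to 0.062 in the untagged ones. The mean level of 15 endothelial markers was 10.83 (carcinoma) and 10.82 (papilloma) under the tag and 5.24 to 5.71 without it. That of 14 fibroblast markers was 11.85 (carcinoma) and 10.86 (papilloma) under the tag and 5.68 to 7.60 without it. For 15 keratinocyte and epithelial markers it was 9.99 (carcinoma) and 9.81 (papilloma) under the tag and 10.78 to 11.62 without it. Limma called 15 of the 15 endothelial and 13 of the 14 fibroblast markers higher in the GFP arrays, and 9 of the 15 keratinocyte markers lower. Of other lists, 9 of 12 mesenchymal, 9 of 16 myeloid, 3 of 11 lymphocyte and 3 of 8 melanocyte markers were called higher. Of 13 neutrophil markers 1 was called higher and 0 lower. Of 16 differentiated keratinocyte markers 1 was called higher and 2 lower. Of all genes 11.9% were called higher and 7.93% lower. Of the 2 sorted surface proteins, Cd34 had 8.76 to 11.73 in all arrays, with the highest values under the GFP tag. Epcam had 9.59 and 8.28 in carcinoma GFP and papilloma GFP and 10.52 to 11.97 in the untagged arrays. The part of these differences in the results below was not tested.

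The secreted factors differed most between the tumour types, so the 250 bases before the annotated start of S100a8, S100a9, Slpi and Lcn2 are shown, from RefSeq on GRCm38.p6. The windows are chr3:90668821-90669070 on the plus strand for S100a8 and chr3:90695722-90695971 on the minus strand for S100a9. For Slpi and Lcn2 they are chr2:164356508-164356757 and chr2:32387740-32387989, both on the minus strand. Capitals mark matches on either strand to TTGCNNAA, the core of C/EBP sites, or to TATAAA, the TATA box, and no match overlaps another.
S100a8: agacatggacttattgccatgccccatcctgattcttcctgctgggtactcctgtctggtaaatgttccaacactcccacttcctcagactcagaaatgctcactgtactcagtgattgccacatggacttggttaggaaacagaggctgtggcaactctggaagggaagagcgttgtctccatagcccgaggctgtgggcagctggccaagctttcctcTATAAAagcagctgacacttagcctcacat
S100a9: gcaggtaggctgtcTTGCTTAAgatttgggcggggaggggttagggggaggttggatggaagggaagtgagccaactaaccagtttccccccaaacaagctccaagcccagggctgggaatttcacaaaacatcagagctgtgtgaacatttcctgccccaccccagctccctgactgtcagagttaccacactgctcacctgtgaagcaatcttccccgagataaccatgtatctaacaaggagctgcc
Slpi: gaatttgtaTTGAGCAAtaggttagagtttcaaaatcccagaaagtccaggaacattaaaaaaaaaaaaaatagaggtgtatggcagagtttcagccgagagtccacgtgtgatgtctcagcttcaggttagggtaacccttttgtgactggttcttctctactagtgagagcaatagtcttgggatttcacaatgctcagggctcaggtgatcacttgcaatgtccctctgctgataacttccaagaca
Lcn2: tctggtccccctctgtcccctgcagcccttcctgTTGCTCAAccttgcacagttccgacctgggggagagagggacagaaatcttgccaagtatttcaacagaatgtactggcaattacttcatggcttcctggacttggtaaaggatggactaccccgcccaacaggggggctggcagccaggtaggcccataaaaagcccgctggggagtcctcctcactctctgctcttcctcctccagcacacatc
S100a9, Slpi and Lcn2 each held 1 match to TTGCNNAA, which 9.57% of 32841 windows of the same length hold, and S100a8 held 1 match to TATAAA, which 12.4% hold. None of the 4 windows held TGANTCA, the AP-1 core, or GGGNN followed directly by TTTCC, an NF-kB form, which 6.75% and 1.41% of windows hold. A match is a description, and no match says only that these letters are not in this window. Promoter windows were found for 8 of the 10 genes, without S100a10 and S100a14.

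The calprotectin pair had lower mean levels in the carcinoma than in the papilloma arrays, with a wide spread among the carcinoma arrays. S100a8 had 7.46, 9.57, 5.26 and 8.72 in carcinoma 1, 2, 3 and GFP, against 9.57, 11.05 and 9.94 in papilloma 1, 2 and GFP. The ranges meet at 1 value, 9.573, shared by carcinoma 2 and papilloma 1, and the other carcinoma arrays lie below all papilloma arrays. The carcinoma mean was 7.75 ± 1.88 (SD, n = 4), against 10.19 ± 0.77 (SD, n = 3) in papilloma, a difference of -2.44 (SE 1.002, 95% interval -4.81 to -0.06) that corresponds to a signal 5.41-fold lower. It did not pass limma's test over all genes (unadjusted p = 0.0456, adjusted p = 1). Permuting the arrays in all ways gave an exact two-sided p of 0.114, and with 4 and 3 arrays no p below 0.0571 can be reached. In bulk RNA, fewer cells of a type and less RNA per cell cannot be told apart. Carcinoma was lower in each of the 3 pairs of arrays with the same label, with differences of -2.12 for those numbered 1, -1.48 for those numbered 2 and -1.22 within the GFP pair. That pattern was shared by 11.9% of all genes. Carcinoma 3 weighed on the size: without it the difference was -1.60, and among the untagged arrays it was -2.88 (SE 1.24).

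S100a9, the partner of S100a8, had 6.97, 9.39, 5.02 and 7.47 in carcinoma 1, 2, 3 and GFP, against 9.38, 9.04 and 8.37 in papilloma 1, 2 and GFP. Carcinoma 2 was the highest of all 7 arrays and the other carcinoma arrays lay below all papilloma arrays. Its carcinoma mean was 7.22 ± 1.80 (SD, n = 4), against 8.93 ± 0.515 (SD, n = 3) in papilloma. The difference of -1.72 had an SE of 0.94 and a limma adjusted p of 1. The exact permutation p was 0.229. Within the GFP pair the difference was -0.90, and in the pair numbered 2 it was 0.35, with carcinoma above papilloma. Without carcinoma 3 it was -0.98. For both genes carcinoma 3 was the lowest array, with a level below the array medians, followed by carcinoma 1 and carcinoma GFP. Few genes varied as much: over the 5 untagged arrays S100a8 spanned 5.79 log2 units and S100a9 4.37, more than 99.9% and 99.6% of genes, against a median range of 0.73. The spread was not particular to the pair, since Lcn2 spanned 5.47 (99.9%), S100a4 2.24 (95.8%) and Slpi 2.03 (94.4%). S100a6, S100a10, S100a14 and S100a16 spanned less than the median range.

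**Figure D1:**
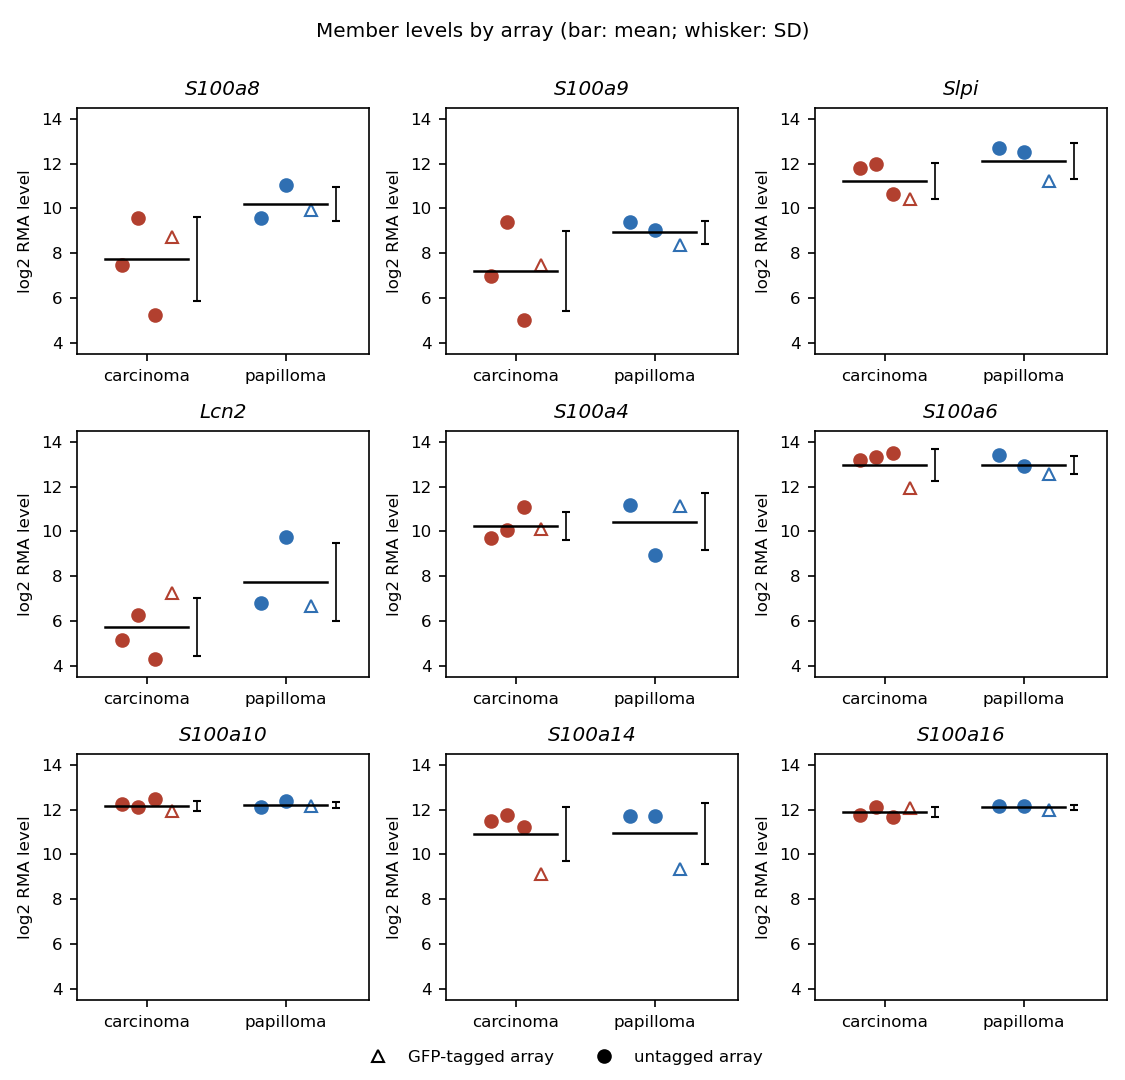
Levels of the 9 measured genes on their brightest probe sets, on the log2 RMA scale, with carcinoma arrays left and papilloma arrays right. Points are arrays, triangles carry the GFP tag, bars are means and whiskers are SDs (n = 4 and 3). S100a8 in carcinoma runs between 5.26 and 9.57, against 9.57 to 11.05 in papilloma. All 9 genes overlap between the tumour types, S100a8 only at a shared value.

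Lcn2 had its highest level in papilloma 2. It had 5.15, 6.26, 4.29 and 7.24 in carcinoma 1, 2, 3 and GFP, against 6.79, 9.76 and 6.69 in papilloma 1, 2 and GFP. Carcinoma 1, 2 and 3 lay below all papilloma arrays, whereas carcinoma GFP lay above papilloma 1 and papilloma GFP, and papilloma 2 stood well above every other array. Lcn2 had a higher mean over the 7 arrays than 49.6% of genes. Its levels in carcinoma 1 and 3 lay below the array medians of 5.38 to 5.51. The carcinoma mean was 5.73 ± 1.29 (SD, n = 4), against 7.75 ± 1.75 (SD, n = 3) in papilloma. They differed by -2.01 (SE 0.97, limma unadjusted p = 0.0775, adjusted p = 1, exact permutation p = 0.229). Leaving out papilloma 2 reduced it to -1.01. Among the untagged arrays it was -3.05 (SE 0.98), and within the GFP pair it was 0.55, the opposite sign. The test of that contrast between GFP and untagged arrays, an interaction term, gave 3.596 (SE 1.805, limma adjusted p = 1).

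Slpi had a lower mean in carcinoma, with overlap. It had 11.82, 11.98, 10.66 and 10.43 in carcinoma 1, 2, 3 and GFP, against 12.69, 12.50 and 11.21 in papilloma 1, 2 and GFP. Both tumour types span more than 1 unit, and carcinoma 1 and 2 overlap papilloma GFP. Among the untagged arrays all 3 carcinoma values lay below both papilloma values, as they did for Lcn2. The share of all genes with this order was not counted, so nothing is drawn from it for either gene. The carcinoma mean was 11.22 ± 0.79 (SD, n = 4), against 12.13 ± 0.805 (SD, n = 3) in papilloma. They differed by -0.91 (SE 0.53, limma unadjusted p = 0.131, adjusted p = 1, exact permutation p = 0.229). Without papilloma GFP it was -1.37 (limma unadjusted p = 0.0353), and without papilloma 1 it was -0.63 (limma unadjusted p = 0.338). An unadjusted p under 0.05 was reached by 194 genes in the first of these fits and by 560 in the second. Carcinoma was lower in each of the 3 same-label pairs, with differences of -0.87, -0.52 and -0.78, a pattern shared by 11.9% of all genes. A fit that included the tag gave -1.01 (SE 0.34, limma unadjusted p = 0.0202), and in it 331 genes had an unadjusted p under 0.05. Among the untagged arrays the difference was -1.11 (SE 0.43). Neither passed the threshold over all genes.

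For each of S100a6, S100a10, S100a14 and S100a16 the carcinoma and papilloma means over all 7 arrays lay within 0.19 log2 units on the brightest probe set. S100a6, calcyclin, averaged 12.98 ± 0.71 (SD, n = 4) in carcinoma, against 12.97 ± 0.42 (SD, n = 3) in papilloma arrays. S100a10, which binds annexin A2 at the plasma membrane, had a mean, over its brightest probe set, of 12.18 ± 0.22 (SD, n = 4) in carcinoma, against 12.21 ± 0.15 (SD, n = 3) in papilloma arrays. S100a14, an S100 of epithelial cells, averaged 10.91 ± 1.198 (SD, n = 4) in carcinoma, against 10.93 ± 1.37 (SD, n = 3) in papilloma arrays. Its chromosomal neighbour S100a16 averaged 11.91 ± 0.22 (SD, n = 4) in carcinoma, against 12.10 ± 0.10 (SD, n = 3) in papilloma arrays. The intervals of these differences ran from -0.98 to 0.99 for S100a6, -0.46 to 0.41 for S100a10, -2.0 to 1.94 for S100a14 and -0.61 to 0.23 for S100a16. In this fit, which leaves out the tag, changes up to those sizes in either direction cannot be told from none. Modelling the tag lowered the SE of S100a14 from 0.833 to 0.171, and its difference moved from -0.028 to -0.225. The SE of S100a6 fell from 0.416 to 0.226, and its difference moved from 0.009 to -0.076. The SEs of S100a10 and S100a16 changed little, to 0.169 and 0.178. Over the untagged arrays alone, S100a14 stood at -0.228 (SE 0.229), S100a6 at 0.16 (SE 0.237) and S100a16 at -0.304 (SE 0.219). On its dimmer probe set S100a16 differed by -0.352 (SE 0.375) over all arrays. S100a10 differed by 0.11 (SE 0.955) on its second brightest and 0.38 (SE 0.787) on its dimmest.

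S100a4, known for its part in cell motility and its expression in fibroblasts, had 9.69, 10.06, 11.10 and 10.10 in carcinoma 1, 2, 3 and GFP. In papilloma 1, 2 and GFP it had 11.19, 8.95 and 11.15. Papilloma held both the lowest and the highest arrays. The carcinoma mean was 10.24 ± 0.61 (SD, n = 4), against 10.43 ± 1.28 (SD, n = 3) in papilloma. They differed by -0.19 (SE 0.62, limma adjusted p = 1). Pairs of the same label disagreed, with -1.50, 1.11 and -1.05 for the arrays numbered 1, numbered 2 and tagged GFP, and among the untagged arrays the sign turned, at 0.21 (SE 0.74). The fibroblast markers had means of 5.68 to 11.85 in the carcinoma and 7.03 to 10.86 in the papilloma arrays, and their part in the S100a4 levels was not tested.

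Across the 9 measured genes 8 had a lower mean and 1 a higher mean in carcinoma, with a median difference of -0.19, against -0.015 over all genes, of which 53.1% had a lower carcinoma mean. Limma called 0 of the 9, and 0 of all genes (0%), at an adjusted p of 0.05. At an unadjusted p under 0.05 there was 1, S100a8, and 112 of all genes (0.616%). No member separated the tumour types without overlap, while 0.912% of all genes did so with carcinoma below and 0.506% with carcinoma above. The interaction of tumour type and tag was called for 0 of the 9 and 0 of all genes (0%) by limma, with 389 genes at an unadjusted p under 0.05.

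**Figure D2:**
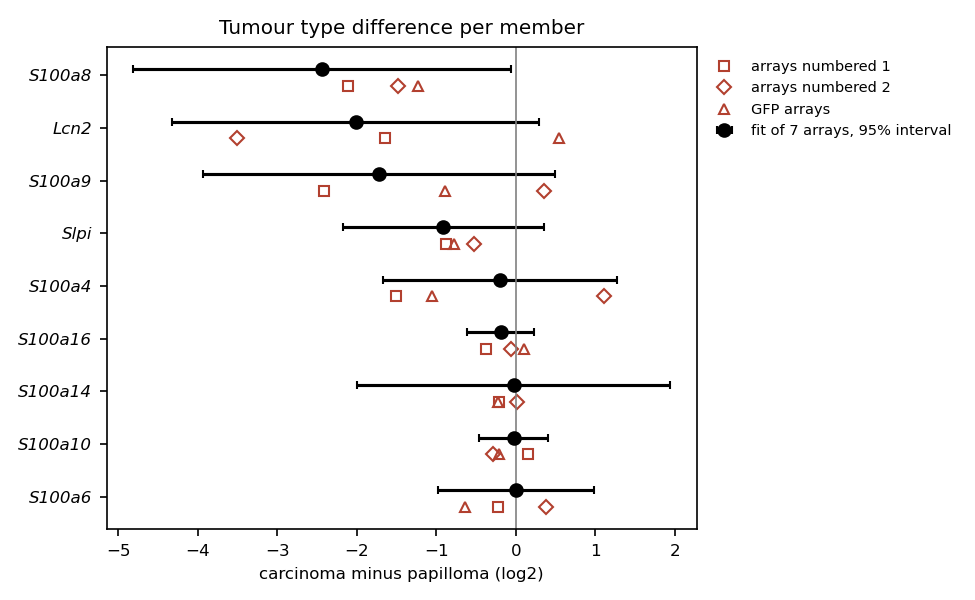
Carcinoma minus papilloma difference of each gene in log2 units. Black points are the fit of 7 arrays with its 95% interval, and open symbols are the differences within the arrays numbered 1, numbered 2 and tagged GFP. S100a8 and Slpi lie below 0 in all 3 pairs, as do 11.9% of all genes, whereas Lcn2 reaches -3.51 and 0.55.

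Other cells that could carry these RNAs were looked for through their markers. Neutrophils store S100a8, S100a9 and Lcn2, and 13 of 16 neutrophil markers were measured. Their mean level was 5.50 to 5.68 in carcinoma and 5.398 to 5.681 in papilloma arrays, with a median carcinoma minus papilloma difference of 0.012. Mpo, the myeloperoxidase of neutrophil granules, lay between 4.76 and 5.31 in all arrays, Ngp, another granule protein, between 4.83 and 5.87, and Csf3r, the receptor for granulocyte colony-stimulating factor, between 5.23 and 6.19. Mmp9, a gelatinase that keratinocytes and macrophages also make, had 6.08 to 11.46, and Padi4, an arginine-modifying enzyme, had 5.60 to 8.98. Ltf, lactoferrin, had 8.57 in carcinoma 1 and at most 5.44 elsewhere. Macrophage and myeloid markers, 16 of 16 measured, had a mean of 5.21 to 7.72 in carcinoma and 5.80 to 7.36 in papilloma arrays and a median difference of -0.025. Krt1, a keratin of differentiating layers, had 5.08, 9.76, 7.197 and 8.81 in carcinoma 1, 2, 3 and GFP, against 9.79, 11.09 and 9.84 in papilloma 1, 2 and GFP. Its difference was -2.53 (SE 1.08), and that of its partner Krt10 was -1.39 (SE 0.66), both with a limma adjusted p of 1. Krtdap and Sbsn, also markers of differentiated keratinocytes, differed by -0.145 (SE 0.883) and -0.367 (SE 0.526). Of the 16 differentiated keratinocyte markers 9 had a lower and 7 a higher carcinoma mean, with a median difference of -0.066. Between the tumour types limma called 0 of all genes (0%), and so no marker of another cell type. Marker means leaned one way in several lists. Carcinoma means were lower for 15 of 15 endothelial markers (median -0.548), 12 of 14 fibroblast markers (-0.629), 8 of 8 melanocyte markers (-0.228) and 9 of 12 mesenchymal markers (-0.219). They were higher for 15 of 15 keratinocyte and epithelial markers (0.374) and 8 of 11 lymphocyte markers (0.013). The part of all these cells in the levels of the members was not tested.

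**Figure D3:**
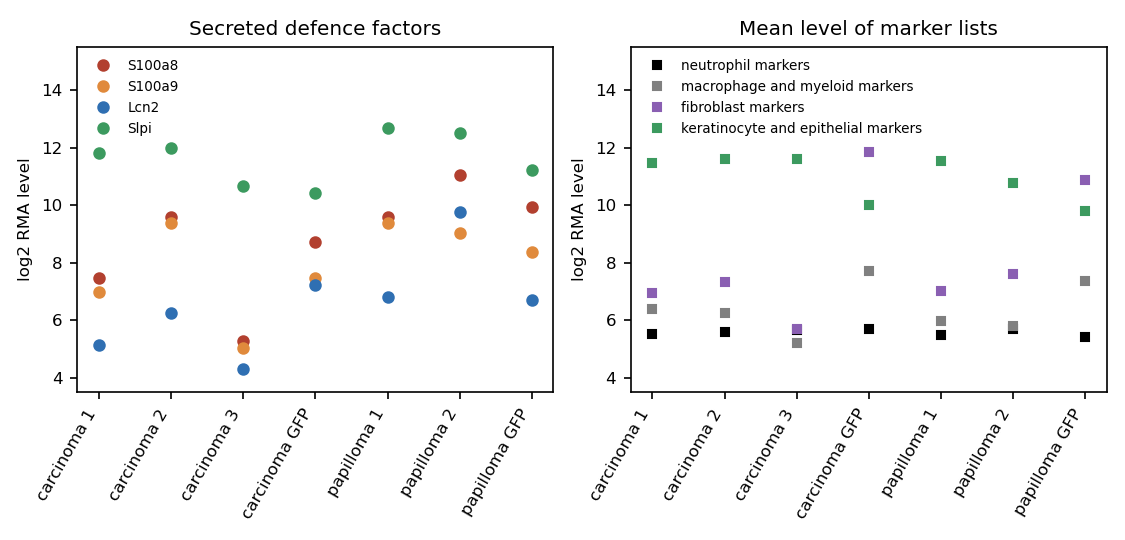
Left, levels of S100a8, S100a9, Lcn2 and Slpi in each array on the log2 RMA scale. Right, mean level of 4 marker lists in the same arrays. Carcinoma 3 is lowest for S100a8, S100a9 and Lcn2, the neutrophil list stays between 5.398 and 5.682, and the fibroblast list reaches 11.85 and 10.86 in carcinoma GFP and papilloma GFP.

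S100a14 and S100a6 fell in the GFP arrays, and the probe sets of S100a10 and S100a16 disagreed. Of the 9 genes limma called 2 lower and 0 higher in the GFP arrays with tumour type as a covariate. Of all genes it called 7.93% lower and 11.9% higher. Among the 9096 genes above the median level it called 1324 lower, S100a14, S100a6 and Slpi among them, and 1228 higher. S100a14 had 9.14 and 9.36 in carcinoma GFP and papilloma GFP, against 11.50, 11.75 and 11.24 in carcinoma 1, 2 and 3 and 11.71 and 11.73 in papilloma 1 and 2. Both GFP arrays lay more than 1 unit below every untagged array, and the untagged arrays spanned 0.51. The difference was -2.36 (SE 0.19, limma adjusted p = 0.000414), a 5.15-fold lower signal, and it passed without any 1 of the 7 arrays (adjusted p between 0.000808 and 0.0163). S100a6 had 11.93 and 12.57 in the GFP arrays and 12.93 to 13.48 in the untagged arrays, a difference of -1.02 (SE 0.25, limma adjusted p = 0.0309) without overlap. Its call was lost without carcinoma GFP (-0.59, adjusted p = 0.405), carcinoma 1 (-1.03, 0.0615), carcinoma 2 (-0.997, 0.0726) or papilloma 1 (-0.98, 0.063). The keratinocyte markers were lower in the same arrays, with a median of -1.33, and the Gapdh probe sets differed as above. Their part in these calls was not tested. GFP arrays lay below all others for 2 of the 9 genes and 19.9% of all genes, and above them for 0 of the 9 and 21.0% of all genes.

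Slpi averaged 10.82 under the tag, against 11.93 in the untagged arrays, a difference of -1.21 (SE 0.37) short of the threshold (limma adjusted p = 0.0634), which passed without carcinoma 3 (-1.43, adjusted p = 0.00452). The calprotectin pair and Lcn2 did not separate along the tag. S100a8 differed by 0.51 (SE 1.10), S100a9 by -0.21 (SE 1.04), Lcn2 by 0.31 (SE 1.08) and S100a4 by 0.41 (SE 0.67), with limma adjusted p between 0.727 and 0.914. Their untagged arrays alone spanned 2.24 to 5.79 units, and the GFP arrays lay inside that span for all 4.

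Probe sets of a single gene disagreed on the tag. S100a10 has 3. On the brightest over all 7 arrays, whose ID carries the suffix x of probe sets prone to cross-hybridisation, carcinoma GFP and papilloma GFP had 11.93 and 12.14, against 12.09 to 12.45 in the untagged arrays (-0.22, SE 0.18). On the second they had 9.41 and 9.82, against 12.14 to 12.46, a difference of -2.72 (SE 0.18) with a limma adjusted p of 0.000293 over 34945 probe sets, of which 6.85% were called lower and 9.15% higher. The dimmest had 5.46 and 6.41, against 5.96 to 8.63 (-1.23, SE 0.75, adjusted p = 0.339). S100a16 showed the same split in the other direction, with 0.05 (SE 0.20) on its brighter probe set and 0.93 (SE 0.22, adjusted p = 0.0315) on the other, which carries the suffix x. The 3′ to 5′ shift of the Gapdh probe sets stands beside these values, and its part in them was not tested. S100a14 and S100a6 have 1 probe set each, so their differences could not be read on another.

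**Figure D4:**
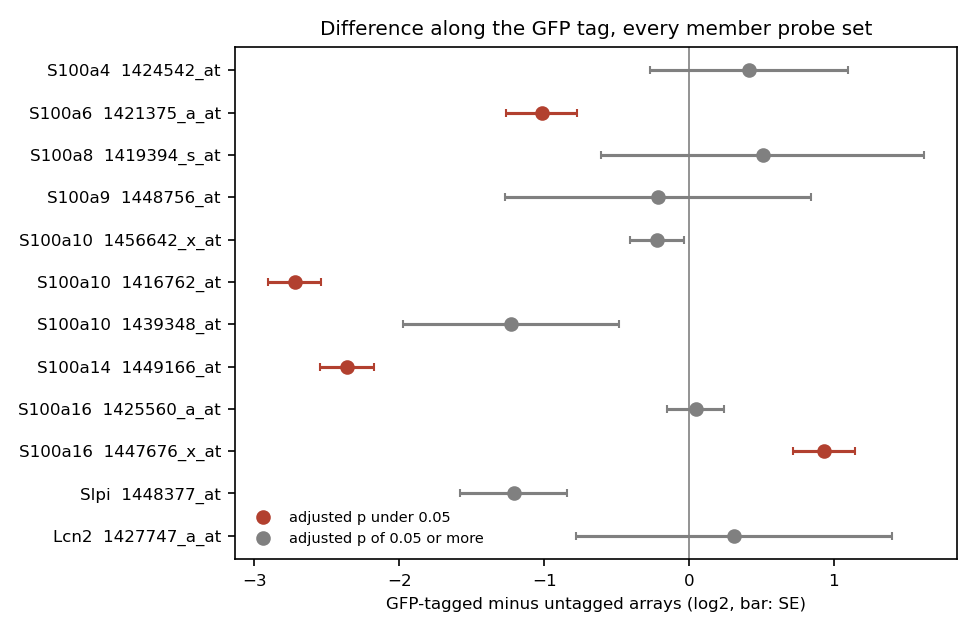
GFP-tagged minus untagged difference for the 12 probe sets of the members, in log2 units with SE, from the fit over 34945 probe sets with tumour type as a covariate. Red points have an adjusted p under 0.05. The 3 probe sets of S100a10 lie at -2.72, -1.23 and -0.22.

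Among the relatives of the members, 7 of 10 other S100 genes were measured. Between the tumour types 0 of them were called, as were 0 of all genes (0%). In the GFP arrays 1 was called lower and 1 higher. The median carcinoma minus papilloma difference of these 7 was -0.14. S100a1, best known from heart muscle, differed by -0.75 (SE 0.30) and S100a13, which takes part in the release of growth factors without a signal peptide, by -0.78 (SE 0.39), both with a limma adjusted p of 1. Along the tag S100a3, an S100 of the hair cuticle, fell to 4.48 in the GFP arrays, against 6.51 in the untagged arrays (-2.03, SE 0.20, limma adjusted p = 0.000986), and S100a13 rose (1.02, SE 0.19, adjusted p = 0.0127). Of the fused S100-type proteins of the cornified layer 5 of 7 were measured and 0 were called in either comparison. Flg, filaggrin, stayed at or below 4.19 in all arrays.

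Partners and receptors of the S100 proteins were not called between the tumour types, where limma called 0 of all genes (0%). Of 7 annexins measured, 6 had a higher carcinoma mean (median 0.22). Anxa1, the partner of S100a11, differed by 0.43 (SE 0.23), and Anxa2, the partner of S100a10, by 0.22 (SE 0.25). In the GFP arrays Anxa6 rose (2.88, SE 0.38, limma adjusted p = 0.0031) and Anxa4 and Anxa7 fell (-0.89 and -0.71, adjusted p = 0.0212 and 0.0405). Among 13 receptors and binding partners, Tlr4, a receptor for calprotectin, averaged 7.07 under the tag, against 5.403 in the untagged arrays (1.69, SE 0.16, adjusted p = 0.000806). Cd36 and Cd14 rose with it (3.16 and 1.31, adjusted p = 0.00603 and 0.0313), whereas Bsg, a receptor reported for S100a9, fell (-2.40, SE 0.35, adjusted p = 0.00436). Myeloid markers were higher in the same arrays, with 9 of 16 called, and their part in these levels was not tested.

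Of 22 other secreted defence factors measured, 12 had a lower and 10 a higher carcinoma mean, 0 were called, and the median was -0.058. Limma called 0 of all genes (0%) between the tumour types, so no list in this paragraph could hold a call there. Defb6, a beta-defensin, differed by -1.43 (SE 0.70), with 8.48 in papilloma 2 and 4.55 to 6.22 in the other arrays. Pglyrp1, a peptidoglycan recognition protein of phagocytes, and Saa3, an acute-phase protein, rose in the GFP arrays (3.24 and 2.78, limma adjusted p = 0.00031 and 0.0232), while Wfdc2, which shares the domain of Slpi, fell (-2.46, SE 0.68, adjusted p = 0.0477). Of 8 serine proteases that include targets of Slpi, 0 were called between the tumour types, and Elane, neutrophil elastase, lay between 4.828 and 5.995 throughout. In the GFP arrays 1 was called higher, Cma1, a mast cell chymase (1.90, SE 0.36, adjusted p = 0.0127). Among 17 inducers and regulators of these genes 0 were called between the tumour types, and 4 were called lower and 2 higher in the GFP arrays. Cebpb, a transcription factor known to act on S100a8, S100a9 and Lcn2, averaged 8.55 under the tag, against 11.37 in the untagged arrays (-2.86, SE 0.23, limma adjusted p = 0.000406), and Fosl1, an AP-1 factor, fell too (-2.51, SE 0.43, adjusted p = 0.00865). Il17rd and Il1r1, cytokine receptors, rose (3.58 and 2.07, adjusted p = 7.44e-05 and 0.00377).

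Genes whose levels ran most like those of a member over the 7 arrays were named by Pearson's correlation among genes brighter than the median, as a description. The closest to S100a9 included Gjb2, a gap junction protein induced in stressed epidermis, at 0.982, with 9.74, 12.10, 8.62 and 10.64 in carcinoma 1, 2, 3 and GFP, against 11.78, 11.58 and 10.72 in papilloma 1, 2 and GFP. For S100a8 they were Pagr1a, Gid4 and Enoph1 (0.979, 0.979 and 0.968), for Lcn2 Snap29, Rpp25l and Tmem33 (0.968, 0.960 and 0.935), and for Slpi Teddm3, Tmem39b and Cdk10 (0.986, 0.983 and 0.982). Agbl5 and Mrm2 followed S100a9 at 0.982 and 0.981. Chchd3, Lmnb1 and Mrpl12 followed S100a14 at 0.997, 0.997 and 0.996, all with both GFP arrays lowest, and Cep43, Rbak and Pan2 followed S100a4 at 0.965, 0.953 and 0.952. All 7 arrays share the divisions by tumour type and tag.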

How the data were processed

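Expression was measured on 7 Affymetrix mouse arrays. Per the labels' protocols the authors labelled amplified RNA and normalized the arrays with RMA, and RMA and affy stand, without versions, in the submitters' processing notes. The deposited values are on a log2 scale from 2.72 to 14.51, as read from the values. Probe sets were named through the platform annotation of 2016, and symbols were updated through RefSeq, GRCm38.p6. Each gene was represented by its brightest probe set with 1 symbol, which gave 18193 genes. The tests used limma 3.58.1 (R 4.3.3): tumour type without covariates, the GFP tag with tumour type as a covariate, and their interaction in a fit of its own. Adjustment was by Benjamini-Hochberg across the whole gene set at 0.05. Permutation tests used all 35 ways of dividing the arrays. The procedure was tested on simulated data. Figures were drawn with matplotlib 3.10.9.

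The members and lists were chosen with earlier results of these data known. Named genes are the members, and in each related list up to 4 genes with the largest difference in each comparison, in each marker list the 3 brightest and defining markers, and for 6 members the 3 genes of most similar level. Across genes, deviations from the group means correlated at 0.476, 0.194 and 0.861 for arrays labelled 1, 2 and GFP in both groups. All were above the limit of 0.1 set for treating them as pairs. Each group holds 1 GFP array, which shifts the deviations of every array in its group. These correlations therefore cannot show that arrays with the same number are pairs. The replicate block is given only as an alternative, as are the settings of the closing section. The number of arrays limits the precision.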

Additional observations from a re-analysis of the deposited data

Results flagged for a closer look

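On the second brightest probe set of S100a10, carcinoma GFP lay far from the other carcinoma arrays, at 9.41 against 12.14 to 12.46, by Dixon's test at 95% for 4 samples. Papilloma GFP had 9.82 on it, and chance marks about 1 in 20 groups.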

How the results depend on the processing

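Between the tumour types no alternative called a gene or a member, and S100a8, S100a9, Lcn2, Slpi and S100a16 kept a lower carcinoma mean in every one where they were tested. In the replicate block, a paired fit, carcinoma 3 has no papilloma array of its label and does not enter the difference. The differences therefore equal those without carcinoma 3 and are not a separate check. S100a8 differed by -1.60, S100a9 by -0.98, Slpi by -0.72 and Lcn2 by -1.53, and the sign of S100a6 turned, at -0.16. Members near 0 turned sign elsewhere too, and the cause was not tested. S100a6 was at -0.076 with the GFP tag as a covariate and -0.012 when quantile-normalized again. Without both GFP arrays S100a4 was at 0.21 and S100a10 at 0.027. Array weights gave 0.021 for S100a10 and 0.22 for S100a14. S100a10 was at 0.16 over the mean of its probe sets, and at 0.11 on its second brightest and 0.38 on its dimmest, settings of which the single probe sets were added after seeing the data. Leaving out 1 array gave -1.37 to -0.63 for Slpi, -3.04 to -1.60 for S100a8, -2.44 to -0.98 for S100a9, -2.55 to -1.01 for Lcn2, -0.93 to 0.18 for S100a4, -0.19 to 0.36 for S100a6, -0.12 to 0.0595 for S100a10 and -0.82 to 0.56 for S100a14.

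Along the GFP tag 3601 genes were called, between 861 (without carcinoma GFP) and 3955 without 1 array, with 1462 without papilloma GFP, and 5591 probe sets when each was tested as its own. S100a10 was called lower over the mean of its probe sets (-1.39, adjusted p = 0.0318) and on its second brightest (-2.72), S100a16 higher on its dimmer one (0.93), and Slpi lower among genes above the median (-1.21, adjusted p = 0.047). Leaving out 1 array gave -0.18 to 1.08 for S100a4, -1.40 to -0.59 for S100a6, -0.37 to 1.29 for S100a8, -0.84 to 0.34 for S100a9, -0.17 to 0.24 for S100a16, -1.43 to -1.05 for Slpi and -1.59 to 2.003 for Lcn2. Where 1 GFP array remained, it was assumed to vary like the others.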
